A study of Mus musculus with 8 samples.

Results

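Of the 45706 genes in the table, 36 genes of aminoacyl-tRNA synthetases were followed. They were chosen by gene symbol: 20 genes of the cytosolic enzymes and 16 of the mitochondrial enzymes. A synthetase joins one amino acid to the transfer RNAs that carry it to the ribosome, so each compartment that makes protein needs a set of them. The cytosol and the mitochondria use separate sets, both encoded in the nucleus and translated on cytosolic ribosomes, and the mitochondrial symbols here end in 2. Gars (glycine) and Kars (lysine) encode the enzyme of both compartments, Eprs encodes one protein for glutamate and proline, and Farsa and Farsb encode the alpha and beta subunits of the cytosolic phenylalanine enzyme. In mammalian cells some of the cytosolic enzymes sit together in the multisynthetase complex, and several synthetase genes are known targets of ATF4, the transcription factor of the amino acid response.

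The libraries came from the arcuate nucleus of the mouse hypothalamus and were made by translating ribosome affinity purification. AgRP neurons are arcuate cells that promote feeding. All mice were Mfffl/fl and also carried AgRP-IRES-Cretg/wt, a Cre driver, and RpL10a-GFPfl/wt, a tagged ribosomal protein, so that Cre, expressed from the AgRP locus, deleted the mitochondrial fission factor gene Mff and switched on the GFP-tagged RpL10a in the same cells. The 4 IP libraries hold RNA bound to tagged ribosomes, and the 4 input libraries hold RNA of the dissected tissue. Mice were 11 to 12 weeks old, of mixed sexes and random-fed, and 3 mice were pooled for each library. Both fractions carry the deletion, and control mice are not analysed here, so the comparison is IP against input and not knockout against control. In such bulk libraries, fewer cells of a type and less RNA per cell cannot be told apart.

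Depth was 44.1 to 74.6 M estimated counts in input and 39.9 to 64.8 M in IP (M, mega). Mff, the targeted gene, was at 112 to 132 CPM (counts scaled to a common library size) in input and 64.0 to 71.2 CPM in IP, and since reads outside the deleted part still count, these levels do not check the deletion. Agrp went from a mean of 3.35 to 843 CPM, and all 9 AgRP neuron markers were higher in IP, their summed level being 79.3 to 89.5 CPM in input and 3122 to 4773 CPM in IP. Summed astrocyte markers were at 1825 to 2319 CPM in input and 495 to 741 CPM in IP, and all 8 were lower. All 7 oligodendrocyte markers and all 4 precursor markers were lower as well, as were 7 of 8 microglial, 3 of 6 vascular, 3 of 5 tanycyte and ependymal and 4 of 6 other arcuate neuron markers. No marker was at 0 in every IP library. IP replicate 3 differed most from the other IP libraries in a chi-square comparison of counts over all tested genes. It gave 222 to 329 per degree of freedom for pairs with IP replicate 3 and 47.1 to 60.2 for the other IP pairs. The comparison includes rows of ribosomal RNA and the row of Yam1, which lies within Rn18s-rs5 on the opposite strand. Of these, Yam1 stood at 116103 CPM in IP replicate 3 and at 37787 to 56318 CPM in the other IP libraries. Rn18s-rs5 stood at 105373 CPM against 189820 to 238799 CPM. The part of these rows in the statistic was not tested. IP replicate 3 also had the lowest IP value for 16 of the 36 synthetase genes (44.4%), against 29.8% over all tested genes.

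All 36 genes passed the filter on low counts, with estimated counts per library from 68 for Vars2 upward. Of the 36, 6 were higher in IP and 6 lower at an adjusted p under 0.05 (quasi-likelihood test of edgeR), and 24 were not called. That is 33.3% called, where 45.4% of the 17000 tested genes were called, 24.5% as higher and 20.9% as lower. Only 2 genes were called with a difference of at least 2-fold, Lars2 (leucine) and Mars2 (methionine), both of them mitochondrial. The Lars2 count may hold ribosomal RNA reads. Without Lars2, 5 of 35 members were higher and 6 lower (31.4% called), and Mars2 was the only one called at 2-fold or more. Across the members 28 had an absolute log2 fold change under 0.5 (77.8%, against 44.5% of all tested genes), and the median absolute log2 fold change was 0.33 against 0.58. The fractions did not overlap for 10 members, 6 of them higher in IP and 4 lower, where 48.1% of all tested genes had no overlap. Between replicates, the coefficient of variation was larger in IP than in input for 35 of 36 members, Lars2 being the exception, with medians of 19.2% in IP and 7.75% in input. Over all tested genes these medians were 24.9% and 9.60%.

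**Figure D1:**
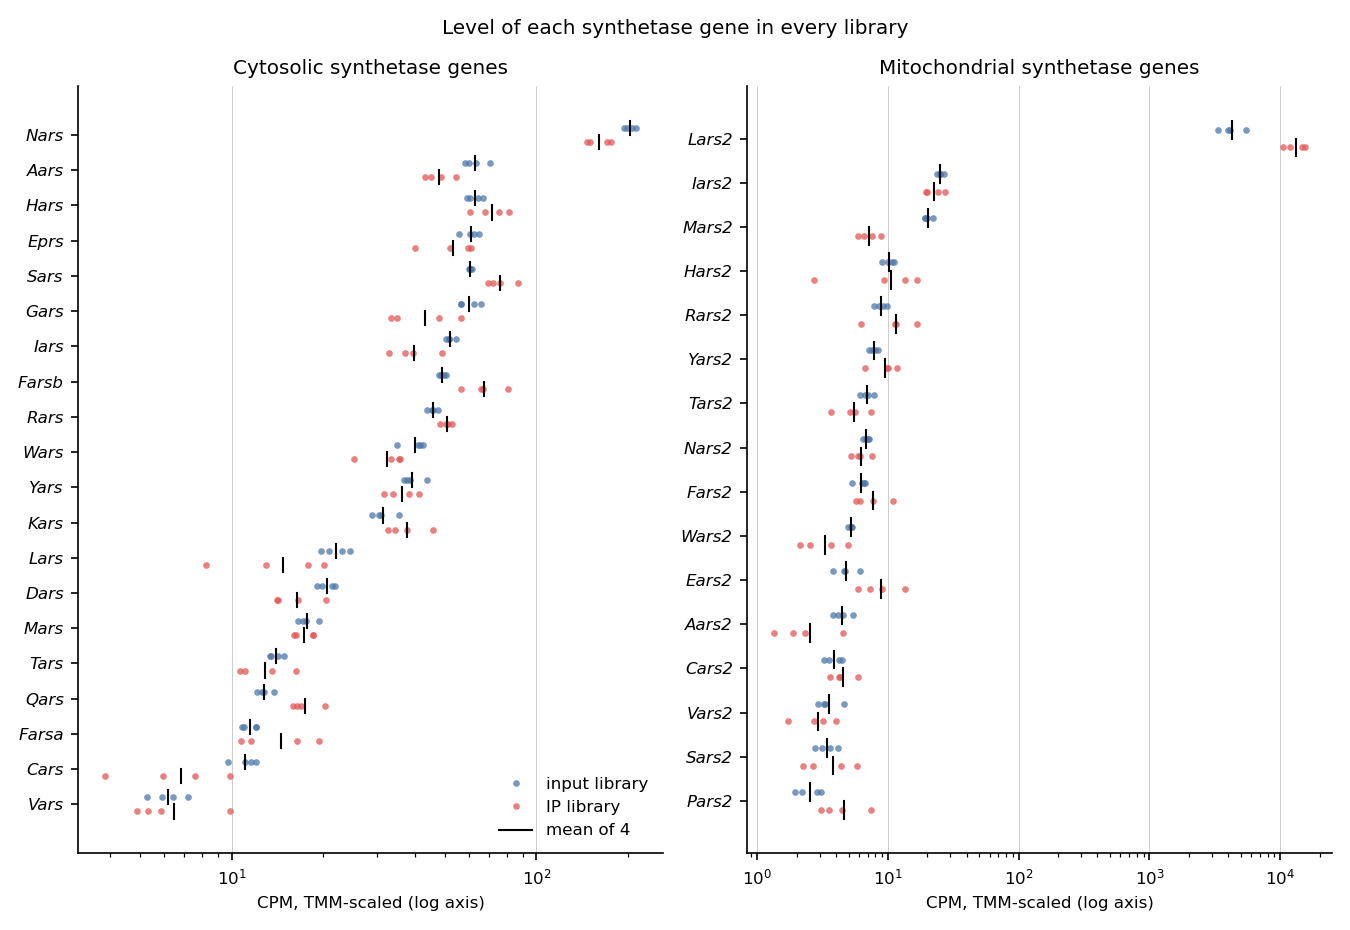
Level of the 20 cytosolic (left) and 16 mitochondrial (right) synthetase genes in CPM on a log axis, with a point for each of the 4 input and 4 IP libraries and a bar at each mean. Most genes keep their order between the fractions, Mars2 sits lower in IP without overlap, and Lars2 sits far above every other gene in both.

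Promoter sequence was examined for the cytosolic genes, since several of them are known ATF4 targets. The motif is TTNCATCA, where N is any base, and such sequences are known to be bound by ATF4 with C/EBP partners. It was searched on both strands of RefSeq promoter windows, from 250 bases before to 50 bases after the start site (GRCm38.p6). A window was matched for 13 cytosolic and 14 mitochondrial members. The motif was present for 5 of these 13 cytosolic genes (38.5%) and 0 of these 14 mitochondrial genes, and in 1304 of all 32851 windows (3.97%). The shares of members count genes with a match in any of their windows. The last share counts single windows, so the measures differ. One stretch is shown for each of the 5 genes. Each spans 28 bases, 5′ to 3′ on the strand given, with the motif in capitals. The offset from the start site is that of the motif base that comes first in the direction of the gene. For Yars that is the last motif base printed.
Aars, chr8:111033841-111033868, plus strand, offset 10: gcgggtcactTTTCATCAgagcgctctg
Gars, chr6:55037961-55037988, plus strand, offset -30: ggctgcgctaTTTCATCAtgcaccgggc
Iars, chr13:49682127-49682154, plus strand, offset 8: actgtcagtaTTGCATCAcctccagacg
Tars, chr15:11399656-11399683, minus strand, offset -15: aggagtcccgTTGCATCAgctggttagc
Yars, chr4:129189896-129189923, minus strand and opposite to the gene, offset 4: tcccgtcgggTTGCATCAgctgagctcg
The stretches of Iars, Tars and Yars hold TTGCATCA, and those of Gars and Aars hold TTTCATCA. Aars also has a match not shown, TTGCATCA at offset -112 on the strand of the gene. A match describes letters in a window and is not a binding site.

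All 5 genes with the motif had negative log2 fold changes. Of them, 3 were lower in IP (Aars, Gars and Iars) and 0 higher, with a median of -0.40. Among the 8 cytosolic genes with a window and no motif, 3 were higher (Farsb, Qars and Sars) and 0 lower, with a median of 0.29. No window was matched for Cars, Hars, Lars, Nars, Rars, Vars and Wars, so this split leaves them out. Of these, Cars (-0.71) and Nars (-0.33) were called lower. Lars and Wars were negative and Hars, Rars and Vars positive, all without a call. The genes with the motif also had longer transcripts, a median of 4005 bases against 2494 bases. The motif and the length cannot be told apart among 13 genes. Aars lost its call with offsets for GC content and length (-0.22, adjusted p = 0.0951), as did Iars (-0.20, adjusted p = 0.181), and with these offsets Tars turned positive (0.050).

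The cytosolic genes were called in both directions. Of 20 genes 3 were higher in IP, 5 were lower and 12 were not called. That is 40.0% called, where 45.4% of all tested genes were called, 24.5% as higher and 20.9% as lower. The median log2 fold change of the 20 genes was -0.11, where the median over all tested genes was -0.01. This split depended on the scaling. With upper quartile factors, which moved the median of all genes by -0.13, 1 was higher and 9 lower. With library totals alone, which moved it by 0.10, 6 were higher and 2 lower. Without IP replicate 3 the counts were 5 higher and 4 lower, and the median was -0.06, as it was without input replicate 2. Without IP replicate 2 it was -0.19, and with GC and length offsets 0.018.

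Farsb, the beta subunit of the phenylalanine enzyme, had the largest increase of the cytosolic genes. Input replicates 1 to 4 stood at 50.5, 48.5, 47.8 and 49.6 CPM and IP replicates 1 to 4 at 80.8, 56.7, 66.5 and 66.0 CPM. All 4 IP libraries lay above all inputs, and the log2 fold change was 0.46 ± 0.10 (SE, with 4 libraries in each fraction), at an edgeR adjusted p of 0.00337. Farsa, which encodes the partner subunit of that enzyme, had 11.0, 12.0, 10.8 and 12.0 CPM in input and 11.6, 19.3, 16.4 and 10.7 CPM in IP. These fractions overlapped, and the edgeR adjusted p was 0.170 for a log2 fold change of 0.34 ± 0.19. Both subunits work in equal number in the enzyme. Per kilobase of transcript, Farsb stood at 24.1 ± 0.6 CPM in input and Farsa at 6.28 ± 0.35 CPM (SD, n = 4). Farsb shares 220 stretches of 31 bases with Sgpp2 on the opposite strand (11.0% of its transcript), so its counts are uncertain, as is its ratio to Farsa. The ratio of Farsa to Farsb CPM ran from 0.218 to 0.248 over the inputs and from 0.143 to 0.341 over the IP libraries.

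Sars, the cytosolic serine enzyme, was the steadiest member in input. It stood at 60.4, 60.4, 60.0 and 61.3 CPM in input and at 86.7, 72.1, 69.2 and 75.6 CPM in IP. All IP values were above all inputs (log2 fold change 0.33 ± 0.08, edgeR adjusted p = 0.00648). Qars, the glutamine enzyme of the multisynthetase complex, stood at 12.8, 13.7, 12.6 and 12.1 CPM in input and at 15.9, 16.9, 20.2 and 16.4 CPM in IP, again without overlap (0.44 ± 0.13, edgeR adjusted p = 0.0140). Sars (0.19, adjusted p = 0.0694) and Qars (0.31, adjusted p = 0.0692) were not called with upper quartile factors.

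Nars, the asparagine enzyme, had the highest level per kilobase of the cytosolic set in both fractions. Input replicates stood at 205, 213, 194 and 198 CPM and IP replicates at 171, 176, 147 and 150 CPM. Every IP library was below every input (log2 fold change -0.33 ± 0.07, edgeR adjusted p = 0.00368). Aars, the alanine enzyme, went from 63.5, 70.5, 58.1 and 60.1 CPM to 54.6, 43.0, 45.2 and 48.5 CPM (-0.40 ± 0.10, edgeR adjusted p = 0.00574). A part of its transcript overlaps Exosc6 on the same strand, with 22.7% of its 31-base stretches shared, so counts of this gene are uncertain. Iars, the isoleucine enzyme of the complex, went from 50.4, 54.6, 51.7 and 51.5 CPM to 39.3, 37.0, 49.0 and 32.8 CPM, also with no overlap (-0.40 ± 0.12, edgeR adjusted p = 0.0152). Iars shares 767 such stretches with the pseudogene-like row Gm4849, and its call was lost with library totals alone (-0.29, adjusted p = 0.0896) and without input replicate 2 (-0.37, adjusted p = 0.0549).

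Gars, the glycine enzyme of both compartments, stood at 62.2, 65.7, 56.6 and 56.4 CPM in input and at 56.6, 34.7, 33.2 and 47.8 CPM in IP. Its IP replicate 1 reached the lower inputs, and the other 3 were below all of them (log2 fold change -0.48 ± 0.16, edgeR adjusted p = 0.0265). The call of Gars was lost with library totals alone (-0.39, adjusted p = 0.0526), without input replicate 1 (-0.46, 0.0681) or 2 (-0.43, 0.0804), and without IP replicate 2 (-0.39, 0.0735) or 3 (-0.38, 0.0525). Kars, the lysine enzyme of both compartments, had the opposite sign without passing the test, at 28.8 to 35.3 CPM in input and 32.5 to 45.8 CPM in IP (0.26 ± 0.12, edgeR adjusted p = 0.101). Cars, the cysteine enzyme, had the most negative cytosolic value and the widest IP spread of the 20 relative to its mean. It stood at 11.6, 12.0, 9.71 and 11.0 CPM in input and at 7.59, 5.94, 3.84 and 9.86 CPM in IP (-0.71 ± 0.25, edgeR adjusted p = 0.0401). Cars lost its call with library totals alone (-0.62, 0.0559), with GC and length offsets (-0.63, 0.0612), without any 1 input library (adjusted p from 0.0591 to 0.0995) and without IP replicate 2 (-0.65, 0.0895).

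Lars and Wars lay close to the threshold on the lower side. Lars, the leucine enzyme, stood at 19.6 to 24.4 CPM in input and at 20.1, 13.0, 8.25 and 17.8 CPM in IP (log2 fold change -0.57 ± 0.23, edgeR adjusted p = 0.0647). Wars, the tryptophan enzyme, had means of 39.9 ± 3.3 CPM in input and 32.4 ± 4.9 CPM in IP (SD, n = 4) with a log2 fold change of -0.30 ± 0.12 (edgeR adjusted p = 0.0634). Lars was called lower in 6 and Wars in 8 of 19 alternatives, including for both the fit without IP replicate 1 (Lars -0.76, adjusted p = 0.0199; Wars -0.35, adjusted p = 0.0488). The remaining cytosolic genes had log2 fold changes between -0.33 (Dars, aspartate) and 0.18 (Hars, histidine). Among these, Mars for methionine was at -0.02 ± 0.11, Vars for valine at 0.06 ± 0.25 and Rars for arginine at 0.15 ± 0.07. The 4 IP values of Rars lay above all inputs, from 48.4 to 53.0 CPM against 43.8 to 47.5 CPM, and its adjusted p was 0.109.

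**Figure D2:**
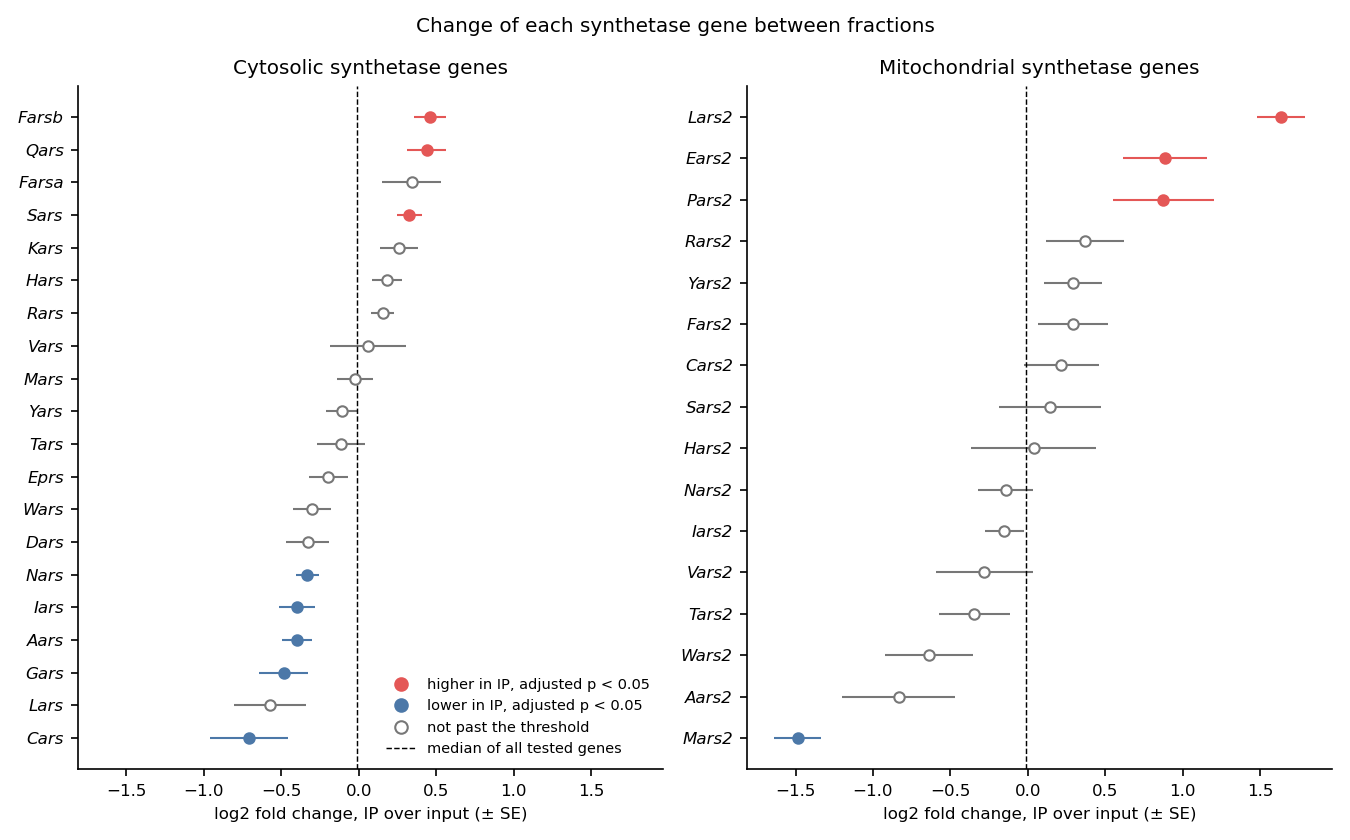
The log2 fold change of IP over input with its standard error for each cytosolic (left) and mitochondrial (right) synthetase gene, filled where the adjusted p was under 0.05, with a dashed line at the median of all tested genes. Of the cytosolic genes, 3 are filled above 0 and 5 below, and of the mitochondrial genes 3 above and 1 below.

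The 8 members of the multisynthetase complex (Dars, Eprs, Iars, Kars, Lars, Mars, Qars and Rars) did not move as one. Of them 1 was higher, 1 was lower and 6 were not called (25.0% called), with a median log2 fold change of -0.11. Of the 12 cytosolic genes outside the complex 2 were higher and 4 lower (50.0% called), with a median also of -0.11. Over all tested genes 45.4% were called. The complex is held together by 3 proteins without synthetase activity. The genes of all 3 were higher in IP, where 24.5% of all tested genes were higher. Aimp2 stood at 9.10 to 11.1 CPM in input and 12.9 to 19.7 CPM in IP (0.69 ± 0.16, edgeR adjusted p = 0.00368), and Aimp1 at 24.5 to 27.6 and 33.8 to 40.4 CPM (0.54 ± 0.09, edgeR adjusted p = 0.000734). For both genes the fractions did not overlap. Their transcripts are short, and with GC and length offsets Aimp1 stood at 0.20 (adjusted p = 0.121) and Aimp2 at 0.33 (adjusted p = 0.0901). The remaining scaffold gene, Eef1e1, named after its value was seen, was at 0.51 ± 0.16 (edgeR adjusted p = 0.0232), and 7 of 19 alternatives ended that call. By the fold of the catalytic domain, 3 of 18 class I members were higher and 3 lower (33.3% called, or 29.4% without Lars2). Of 17 class II members 3 were higher and 3 lower (35.3% called), with Eprs holding a domain of each class.

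Mitochondrial synthetase genes were present at lower levels than the cytosolic ones. Per kilobase of transcript, the median gene stood at 2.04 CPM in input and 2.02 CPM in IP over the 15 genes other than Lars2, and at 12.1 and 9.87 CPM over the 20 cytosolic genes. Summed over the same 15 genes, they came to 120 ± 4.7 CPM in input and 111 ± 15.3 CPM in IP (SD, n = 4), and the 20 cytosolic genes came to 882 ± 37.7 and 822 ± 60.4 CPM. Cytosolic over mitochondrial sums gave ratios of 7.19 to 7.48 for inputs and 6.83 to 8.24 for IP libraries, so that the fractions overlapped. Of the 16 mitochondrial genes 3 were higher in IP, 1 was lower and 12 were not called. That is 25.0% called, against 45.4% of all tested genes. Without Lars2, 2 of 15 were higher and 1 lower (20.0% called). The mitochondrial median log2 fold change was 0.09, or 0.04 without Lars2, and its sign was not stable. The median of the 16 was -0.044 with upper quartile factors, -0.055 with limma-voom, -0.0097 without IP replicate 2 and -0.096 without IP replicate 4. Without IP replicate 3 the counts were 4 higher and 2 lower.

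Mars2, the mitochondrial methionine enzyme, had the clearest decrease of all members. This enzyme supplies both initiator and elongator methionine in mitochondria. Inputs 1 to 4 stood at 22.0, 19.2, 20.0 and 19.3 CPM, and IP libraries 1 to 4 at 5.86, 7.49, 8.84 and 6.51 CPM. The highest IP library stood at less than the lowest input, and the mean was 2.80-fold lower in IP (log2 fold change -1.49 ± 0.15, edgeR adjusted p = 1.36e-05). Mars2 lies on chromosome 1 at 55237177 to 55248470, plus strand (GRCm38), as a single exon of 11294 bases, the longest transcript of the members. Per kilobase it ranked 31 of 36 in input and 36 of 36 in IP. Among the 382 tested genes with a transcript of at least 10000 bases, the median log2 fold change was -0.43, and 12.8% had a value at or below that of Mars2, against 12.0% of all tested genes. With GC and length offsets Mars2 was at -0.81, and it was called in all 19 alternatives.

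Ears2 and Pars2 encode the mitochondrial enzymes for glutamate and proline, the same 2 amino acids that Eprs serves in the cytosol. Ears2 stood at 4.70, 6.14, 4.61 and 3.77 CPM in input and at 13.4, 7.26, 5.87 and 9.03 CPM in IP (log2 fold change 0.89 ± 0.27, edgeR adjusted p = 0.0192). Input replicate 2 reached above IP replicate 3, so the fractions overlapped. Pars2 stood at 2.18, 2.87, 3.05 and 1.95 CPM in input and at 7.38, 3.06, 4.44 and 3.57 CPM in IP (0.87 ± 0.33, edgeR adjusted p = 0.0478). The highest input and the lowest IP library of Pars2 were nearly equal. IP replicate 1 was the highest library for both genes, and without it Ears2 stood at 0.62 (adjusted p = 0.0504) and Pars2 at 0.56 (adjusted p = 0.137). The call of Ears2 was also lost without input replicate 3 (adjusted p = 0.0507) or 4 (0.0603) and with GC and length offsets (0.71, 0.0532). Pars2 was called in 8 of 19 alternatives, and leaving out any 1 input library ended its call (adjusted p from 0.0655 to 0.124).

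Aars2 and Wars2 had negative values and missed the threshold. Aars2, for alanine, stood at 3.82, 5.42, 4.14 and 4.49 CPM in input and at 1.34, 2.31, 1.89 and 4.53 CPM in IP (log2 fold change -0.83 ± 0.37, edgeR adjusted p = 0.0860). Without IP replicate 4, the only IP library to reach the input range, Aars2 was at -1.27 (adjusted p = 0.0061). Wars2, for tryptophan, stood at 4.91 to 5.33 CPM in input and at 3.70, 2.12, 4.95 and 2.51 CPM in IP (-0.64 ± 0.29, edgeR adjusted p = 0.0900), and without IP replicate 3 it was at -0.90 (adjusted p = 0.0105). Hars2, for histidine, was the most uneven member in IP, at 9.29, 16.6, 2.74 and 13.4 CPM against 9.03 to 11.2 CPM in input (0.04 ± 0.40, edgeR adjusted p = 0.951). Hars2 and Hars lie head to head on chromosome 18, and 165 stretches of 31 bases are shared on opposite strands. The other mitochondrial genes lay between -0.35 (Tars2, threonine) and 0.37 (Rars2, arginine) and were not called. Of these, Iars2 shares 36.8% of its 31-base stretches with Rab3gap2 and Cars2 19.7% with Naxd, both on the opposite strand. Their counts are uncertain too.

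Enzymes for the same amino acid were set side by side for 16 pairs, leucine left out. The cytosolic gene had the higher log2 fold change in 9 pairs and the mitochondrial gene in 7, the sign was the same in 11, and the median difference was 0.10. Differences within pairs were not tested. Methionine had the widest gap, with Mars at -0.02 and Mars2 at -1.49. The log2 ratio of Mars to Mars2 CPM was -0.19 ± 0.17 in input and 1.29 ± 0.28 in IP (SD, n = 4), and these ranges did not overlap. Per kilobase, Mars stood above Mars2 in both fractions, at 5.95 against 1.78 CPM in input and 5.85 against 0.635 CPM in IP. Glutamate (Eprs -0.20, Ears2 0.89) and proline (Eprs -0.20, Pars2 0.87) lay at the opposite end, followed by cysteine (Cars -0.71, Cars2 0.22). Alanine (Aars -0.40, Aars2 -0.83) and tryptophan (Wars -0.30, Wars2 -0.64) had negative values in both compartments, and phenylalanine (Farsa 0.34, Farsb 0.46, Fars2 0.29) positive values in both.

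**Figure D3:**
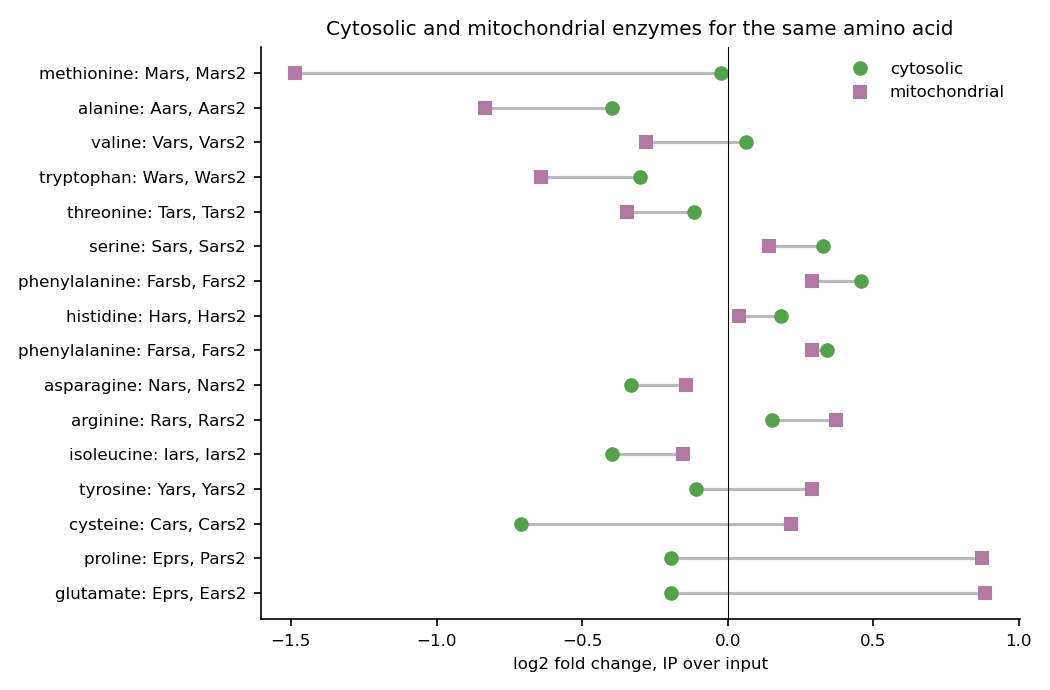
The log2 fold change of IP over input for the cytosolic (circle) and mitochondrial (square) enzyme of each amino acid, joined by a line and ordered by their difference, leucine left out. Methionine is at the top, with Mars2 at -1.49 and Mars at -0.02, and glutamate and proline are at the bottom, with Ears2 at 0.89 and Pars2 at 0.87.

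Longer members had lower log2 fold changes. Across the 35 genes other than Lars2, Spearman's rho between transcript length and the log2 fold change was -0.60, and it was -0.48 over the 20 cytosolic and -0.75 over the 15 mitochondrial genes. Over the 16901 tested genes with a known length it was -0.24. These are descriptions across genes that share the same 8 libraries. With GC and length offsets rho over the 35 genes was -0.37. The cytosolic median then stood at 0.02, with 3 genes higher and 2 lower (Cars, Aars and Iars were no longer called). Spearman's rho with GC content was 0.14. Levels per kilobase kept their order between the fractions, with a rho of 0.97 across the 35 genes.

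**Figure D4:**
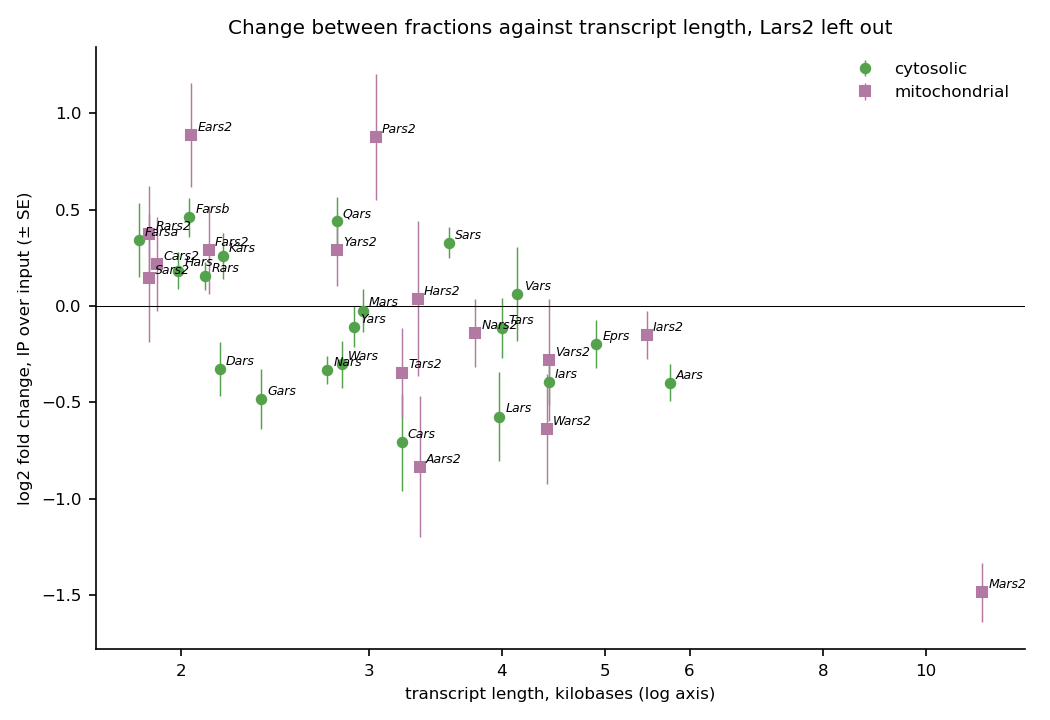
The log2 fold change of IP over input (± SE) against transcript length on a log axis for 20 cytosolic (circle) and 15 mitochondrial (square) synthetase genes. Values decline with length, with a Spearman's rho of -0.60 over the 35 genes, and Mars2 lies at the far right.

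Lars2, the mitochondrial leucine enzyme, stood outside the range of every other member. Inputs 1 to 4 held 3986, 3361, 4160 and 5493 CPM of it, and IP libraries 1 to 4 held 14742, 11971, 10570 and 15577 CPM. The lowest IP library was above the highest input (log2 fold change 1.64 ± 0.16, edgeR adjusted p = 7.42e-06). Per kilobase of transcript, Lars2 had a mean of 1091 CPM in input and the next highest member, Nars, 73.7 CPM. Lars2 took 0.334% to 0.521% of all counts in input and 1.13% to 1.55% in IP. Among rows of ribosomal RNA, Rn18s-rs5 (1.02 ± 0.22, edgeR adjusted p = 0.00290) and Yam1 (2.04 ± 0.35, edgeR adjusted p = 0.000567) were higher in IP too, and the mitochondrial ribosomal RNA row mt-Rnr2 was lower (-4.55 ± 0.10). Relative to Rn18s-rs5, Lars2 gave a ratio of 0.0433 to 0.0509 in the inputs, below the 0.0631 to 0.100 of the IP libraries. Relative to the Yam1 rows the fractions overlapped, with ratios of 0.139 to 0.579 in the inputs and 0.0910 to 0.412 in the IP libraries. Within the annotated transcript of Lars2, stretches of 31 bases are shared with AA474408 (26 stretches) and Gm15564 (22), all between bases 3172 and 3329 of 3894. The part of ribosomal RNA reads in the Lars2 count was not tested, so the value is not read as the level of the enzyme's messenger RNA.

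**Figure D5:**
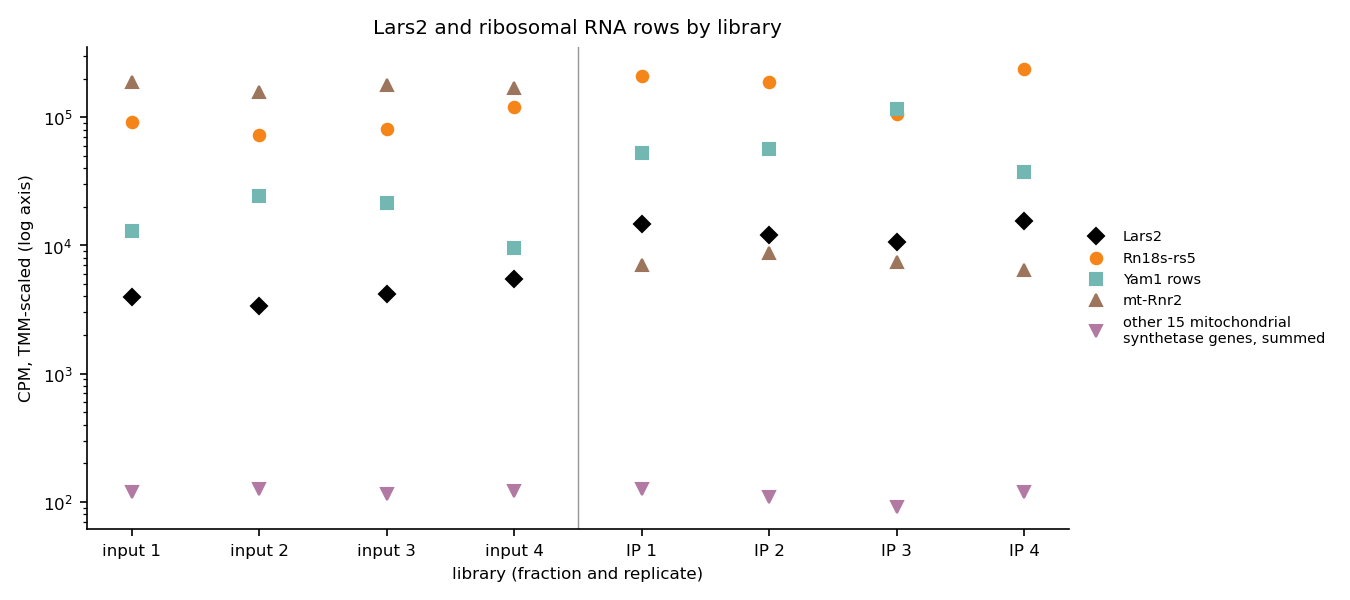
Level of Lars2, Rn18s-rs5, the Yam1 rows, mt-Rnr2 and the summed other 15 mitochondrial synthetase genes in each library, in CPM on a log axis. Inputs are left of the line and IP libraries right of it. Lars2 lies between 3361 and 5493 CPM in input and between 10570 and 15577 CPM in IP, more than the other 15 genes together in every library.

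Genes around the synthetases were taken from lists by role. Tarsl2, which encodes a second threonine enzyme, was lower (-0.38 ± 0.11, edgeR adjusted p = 0.0155). It lost its call with library totals alone (-0.28, adjusted p = 0.0658), with GC and length offsets (-0.27, 0.0612) and without input replicate 1 (-0.34, 0.0695) or 4 (-0.37, 0.0524). Mitochondria make glutaminyl-tRNA by amidating a glutamate already attached to it. Of the 4 genes of this route and of initiator formylation 1 was higher (25.0%, against 24.5% of all tested genes). This was Gatc, a subunit of the amidotransferase, at 44.6 to 49.8 CPM in input and 64.6 to 73.5 CPM in IP (0.56 ± 0.08, edgeR adjusted p = 0.000103).

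All 4 genes of proofreading factors, which clear wrongly charged transfer RNAs, were higher, where 24.5% of all tested genes were higher. Dtd1, a D-aminoacyl-tRNA deacylase gene, stood at 102 to 118 CPM in input and 160 to 220 CPM in IP (0.69 ± 0.10, edgeR adjusted p = 0.000171). Aarsd1, which clears mischarged alanine transfer RNA, was at 0.42 ± 0.12 (edgeR adjusted p = 0.0161) and at 0.14 with GC and length offsets (adjusted p = 0.411). The median over the 4 genes was 0.55, and their transcripts had a median length of 1821 bases. The other 2, Dtd2 (0.51 ± 0.19, edgeR adjusted p = 0.0426) and Prorsd1 (0.58 ± 0.21, edgeR adjusted p = 0.0396), were named after their values were seen, and 9 and 10 of the 19 alternatives ended their calls. With upper quartile factors Aarsd1 was not called either (0.29, adjusted p = 0.0770), and only Dtd1 of this list remained higher. Of 16 genes of transfer RNA maturation and modification in mitochondria 4 were higher and 0 lower, or 25%, close to the 24.5% of all tested genes that were higher. Their median was 0.35, and it was 0.18 without IP replicate 3 and 0.19 with GC and length offsets. The smallest p-values were those of 1110008L16Rik, at 7.79 to 8.50 CPM in input and 10.8 to 16.4 CPM in IP (0.72 ± 0.16, edgeR adjusted p = 0.00321), and Nsun3, a methyltransferase of the mitochondrial methionine transfer RNA, with means of 19.3 and 29.1 CPM (0.59 ± 0.15, edgeR adjusted p = 0.00655).

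Amino acid response genes went in both directions. Of 15 tested genes 2 were higher and 5 lower, with a median of -0.24. The share called was 46.7%, close to the 45.4% of all tested genes. Leaving out 1 library gave 1 to 3 higher and 3 to 6 lower. The median was -0.08 without IP replicate 3 and -0.16 without input replicate 3. Atf5, a transcription factor of this response, stood at 6.59 to 7.43 CPM in input and 13.9 to 21.7 CPM in IP (log2 fold change 1.38 ± 0.16, edgeR adjusted p = 4.10e-05). Cebpb, another factor, was higher from a level below 1 CPM (1.64 ± 0.53, edgeR adjusted p = 0.0253), a call that 7 alternatives ended, among them the GC and length offsets (1.31, adjusted p = 0.0594) and the fits without input replicate 1 (1.46, 0.0776), 2 (1.70, 0.0567) or 3 (1.62, 0.0669) or IP replicate 4 (1.31, 0.0634). Phgdh, the first enzyme of serine synthesis, went from 19.7 to 25.4 CPM in input to 4.27 to 6.32 CPM in IP (-2.17 ± 0.16, edgeR adjusted p = 8.99e-07), and Psat1, the second, from 64.4 to 80.2 CPM to 23.8 to 31.7 CPM (-1.41 ± 0.11, edgeR adjusted p = 1.23e-06). Serine synthesis is known to be most active in astrocytes in the brain, whose summed markers were 2099 CPM in input and 576 CPM in IP, and their part in these values was not tested. Atf4 and the asparagine synthetase gene Asns, chosen after their values were seen, were at 0.10 ± 0.10 and -0.24 ± 0.10 (edgeR adjusted p = 0.467 and 0.0644). The motif shown for the cytosolic synthetase genes was present for 4 of the 15 genes of this list with a promoter window (26.7%).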

How the data were processed

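RNA sequencing libraries of 4 IP and 4 input samples were compared. The deposited table holds estimated counts per gene, made by the authors with Salmon 0.14.1 on GRCm38.p6, per the submitters' processing notes. Between 15.3% and 19.2% of all values in a library, zeros included, were not whole, and values were rounded. The strand setting of the counting is not given in the sources used here, so genes that overlap are uncertain. edgeR 4.0.16 (R 4.3.3) was used with TMM factors, filterByExpr (minimum count 10) and the quasi-likelihood test, with Benjamini-Hochberg adjustment over 17000 tested genes. CPM values are scaled by TMM factors, and SE is the absolute log2 fold change over the square root of the F statistic. The main fit and some alternatives were run on simulated counts in which few genes changed. In the data 45.4% of tested genes were called, so that run does not check the scaling. Transcript lengths are those of the longest GENCODE M21 transcript of each gene, coding ones first. Alternatives were DESeq2 1.42.0, limma 3.58.1 (voom), other scalings and filters, GC and length offsets, a replicate block and leaving out each library. Labels state separate pools of 3 mice but not whether an input and an IP share a pool. The members and lists were chosen with earlier results of these data known. All members could be named, and from each list of other genes the 2 with the smallest p in each direction among those called. Some items are not reported here.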

Additional observations from a re-analysis of the deposited data

How the results depend on the processing

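Counts of called genes moved with the settings as follows. With upper quartile factors 1 cytosolic gene was higher and 9 lower and 3 mitochondrial genes were lower, and with library totals alone 6 cytosolic genes were higher and 2 lower. Of all calls, 54.1% were higher in the analysis as reported, 43.3% with upper quartile factors and 61.6% with library totals alone. Both DESeq2 and limma-voom called 8 cytosolic and 2 mitochondrial genes lower. GC and length offsets left 2 cytosolic genes lower, and with the replicate block added 4 cytosolic genes were lower and 1 mitochondrial gene was higher. The cytosolic median was -0.24 with upper quartile factors, 0.018 with the offsets and 0.0098 with offsets and block, and the mitochondrial median of 0.09 ran from -0.096 without IP replicate 4 to 0.19 with library totals alone. Leaving out 1 library gave 3 to 5 cytosolic genes higher, 2 to 7 lower, 1 to 4 mitochondrial genes higher and 1 to 2 lower. With Lars2 left out of the members, an alternative chosen after seeing the data, 2 mitochondrial genes were higher and 1 lower.

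Of 683 values of single members under alternatives, 588 kept direction and side of the threshold, 36 lost a call, 32 gained one and 27 changed sign. Changed signs were Eprs (offsets 0.012), Mars (library totals 0.076, offsets 0.024, offsets and block 0.025), Tars (offsets 0.050, offsets and block 0.030), Vars (upper quartile -0.0737, limma-voom -0.0713), Hars2 (upper quartile -0.10, limma-voom -0.38, replicate block -0.20, offsets and block -0.0739), Iars2 (offsets 0.079, offsets and block 0.065), Nars2 (offsets 0.016, offsets and block 0.0019) and Sars2 (offsets -0.0864, offsets and block -0.17). None of these genes was called in the analysis as reported. Leaving out 1 library took Mars from -0.056 to 0.0335, Vars from -0.21 to 0.18, Hars2 from -0.27 to 0.36 and Sars2 from -0.13 to 0.33. The cause was not tested. Farsb, Nars and Mars2 were called in all 19 alternatives and Lars2 in the 18 that held it.

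Same-numbered input and IP libraries correlated in their deviations by 0.048 to 0.084, and libraries of different number by -0.038 to -0.0016. Whether same-numbered libraries share a pool was not tested, and the analysis as reported did not pair them. A replicate block gave 3878 genes higher and 3714 lower, against 4171 and 3545, and with it 3 cytosolic genes were higher and 7 lower and 2 mitochondrial genes higher and 1 lower. The block called Lars (-0.64, adjusted p = 0.0173) and Wars (-0.31, adjusted p = 0.0275) lower, ended the calls of Pars2 (0.81, adjusted p = 0.0925), Cebpb (1.56, adjusted p = 0.0657) and Prorsd1 (0.58, adjusted p = 0.0824), and with it the mitochondrial median was -0.047.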
